A study of Mus musculus with 2 samples.

Results

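Aminoacyl-tRNA synthetases are the enzymes that join each amino acid to its transfer RNA, and their genes were followed here in mouse X63/0 plasmacytoma cells given cycloleucine. The set was fixed by gene symbol and held 38 genes of the 43346 features in the deposited table. It comprised 20 genes of cytosolic enzymes, 16 genes of mitochondrial enzymes, whose symbols end in 2, and Aimp1 and Aimp2, which encode scaffold proteins of the multisynthetase complex. One culture received 30 mM cycloleucine for 3 h, and the other was untreated. Both were X63/0 (X63-Ag8.653), an established mouse plasmacytoma line, and ribosomal RNA was depleted from total RNA before sequencing. Cycloleucine blocks methionine adenosyltransferase, the enzyme that makes S-adenosylmethionine from methionine, and the comparison asks how transcripts differ when this methyl donor is lowered. The series describes its experiment as triplicated, while 2 libraries, 1 per group, were analysed here. Differences are therefore given with their counting error, without a replicate check or a p-value.

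The cycloleucine library held 31951946 reads in genes and the untreated library 27127865. All 8 plasma cell marker genes in the table were measured, among them Xbp1, Irf4, Sdc1 and Mzb1. The 4 T cell markers together had 10 exon reads in the cycloleucine and 15 in the untreated library, and 3 myeloid markers had 55 with cycloleucine and 44 untreated. The 3 fibroblast markers together had 54 exon reads with cycloleucine and 34 untreated. Of these Pdgfra held 47 with cycloleucine and 24 untreated, and a part of other cell types in the values below was not tested.

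Each synthetase recognises 1 amino acid and its transfer RNAs and uses ATP to charge them, which supplies the ribosome with its substrate. Eprs is the exception and charges both glutamate and proline. The cytosolic and mitochondrial sets are both encoded in the nucleus. Gars and Kars supply both compartments from a single gene, and mitochondrial glutaminyl-tRNA is made without a glutamine enzyme, by Ears2 and an amidotransferase. Cytosolic enzymes fall into class I and class II by the fold of their catalytic domain, and several of them assemble with Aimp1 and Aimp2 into the multisynthetase complex. Many cytosolic synthetase genes are known targets of ATF4, the transcription factor of the amino acid response, which binds elements with the core TGATGNAA.

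The letters TGATGNAA were searched on both strands of RefSeq windows (GRCm38.p6) that run from 250 bases before to 50 bases after the start of a gene. A window was found for 13 cytosolic and 14 mitochondrial enzyme genes. The core was present in 5 of the 13 cytosolic windows, which is 38.5%, and in 0 of the 14 mitochondrial windows. Among all 27025 genes with a window, 4.51% had it. The 5 cytosolic promoters with the core are shown for that reason, in lower case. Capitals mark the core as it reads on the gene's strand, and TTNCATCA is its reverse complement.
Iars: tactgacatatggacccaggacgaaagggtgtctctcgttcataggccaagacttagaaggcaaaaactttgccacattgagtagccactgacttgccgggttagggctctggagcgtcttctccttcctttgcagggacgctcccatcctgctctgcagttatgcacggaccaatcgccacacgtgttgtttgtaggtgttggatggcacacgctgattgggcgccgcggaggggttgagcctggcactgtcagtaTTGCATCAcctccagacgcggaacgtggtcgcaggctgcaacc
Yars: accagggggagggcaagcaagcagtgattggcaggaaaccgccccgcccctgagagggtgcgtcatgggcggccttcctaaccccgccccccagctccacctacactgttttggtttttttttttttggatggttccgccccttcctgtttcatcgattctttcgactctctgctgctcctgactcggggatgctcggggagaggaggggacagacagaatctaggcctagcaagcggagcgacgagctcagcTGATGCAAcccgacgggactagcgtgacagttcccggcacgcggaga
Aars: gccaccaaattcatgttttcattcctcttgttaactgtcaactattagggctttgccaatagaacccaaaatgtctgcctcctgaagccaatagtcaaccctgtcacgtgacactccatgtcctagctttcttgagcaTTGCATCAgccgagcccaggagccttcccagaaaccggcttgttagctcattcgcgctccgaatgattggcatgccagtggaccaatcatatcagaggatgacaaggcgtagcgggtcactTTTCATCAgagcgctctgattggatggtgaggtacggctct
Tars: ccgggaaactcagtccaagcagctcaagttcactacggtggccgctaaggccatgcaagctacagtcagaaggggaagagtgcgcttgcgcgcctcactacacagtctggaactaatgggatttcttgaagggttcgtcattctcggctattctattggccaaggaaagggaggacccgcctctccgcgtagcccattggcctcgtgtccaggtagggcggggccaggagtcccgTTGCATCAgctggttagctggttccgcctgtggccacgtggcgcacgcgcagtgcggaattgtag
Gars: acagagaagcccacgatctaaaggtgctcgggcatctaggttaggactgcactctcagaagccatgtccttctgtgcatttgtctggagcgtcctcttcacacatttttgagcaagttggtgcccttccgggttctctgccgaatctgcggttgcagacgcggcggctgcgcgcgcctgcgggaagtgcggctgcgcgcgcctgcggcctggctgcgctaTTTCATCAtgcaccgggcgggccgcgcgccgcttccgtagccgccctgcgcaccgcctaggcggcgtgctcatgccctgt
The windows lie at chr13:49681880-49682179 on the plus strand for Iars, chr4:129189653-129189952 on the plus strand for Yars and chr8:111033592-111033891 on the plus strand for Aars. That of Tars is chr15:11399609-11399908 on the minus strand and that of Gars chr6:55037751-55038050 on the plus strand. Counted from 0 at the start site, the core began at 7 in Iars, 3 in Yars, -15 in Tars and -30 in Gars. Aars had 2 matches, at -112 and at 9. A match of these letters is not evidence of binding.

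Levels are given as RPKM, the exon reads of a gene divided by its exon length and by the library's total of gene reads, which allows genes of different length to be compared. The cytosolic enzymes ran from 10.8 to 158 RPKM with cycloleucine and from 12.8 to 155 RPKM untreated. Gars, the glycine enzyme, was the highest of these in both libraries, ahead of Kars, the lysine enzyme, at 113 RPKM with cycloleucine and 109 untreated. Farsa, the catalytic alpha subunit of the phenylalanine enzyme, was the lowest, while its beta subunit Farsb had 47.2 RPKM with cycloleucine and 47.4 untreated. The exon length behind RPKM equalled the union of all exons of the gene in GENCODE M21 in 20 of the 38 genes, among them Farsa with 6 annotated transcripts. A gene with many alternative exons can thus be given a lower level than its main transcript would have.

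With leucine left out of the comparison, mitochondrial enzymes were lower in RPKM than their cytosolic partners. Leaving out Lars2, which is described separately, they ran from 1.21 to 13.6 RPKM with cycloleucine and from 1.16 to 13.5 RPKM untreated. Across 14 pairs of a cytosolic and a mitochondrial gene for the same amino acid, without leucine, the cytosolic gene was 2.38 to 35.2 times higher with cycloleucine and 2.25 to 28.2 times higher untreated. The widest gap was that of asparagine, Nars against Nars2, and the narrowest that of isoleucine, Iars against Iars2. Tars2, the mitochondrial threonine enzyme, had 13.6 RPKM with cycloleucine and 13.5 untreated. Wars2, the mitochondrial tryptophan enzyme, was the lowest, at 1.21 with cycloleucine and 1.16 untreated.

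**Figure D1:**
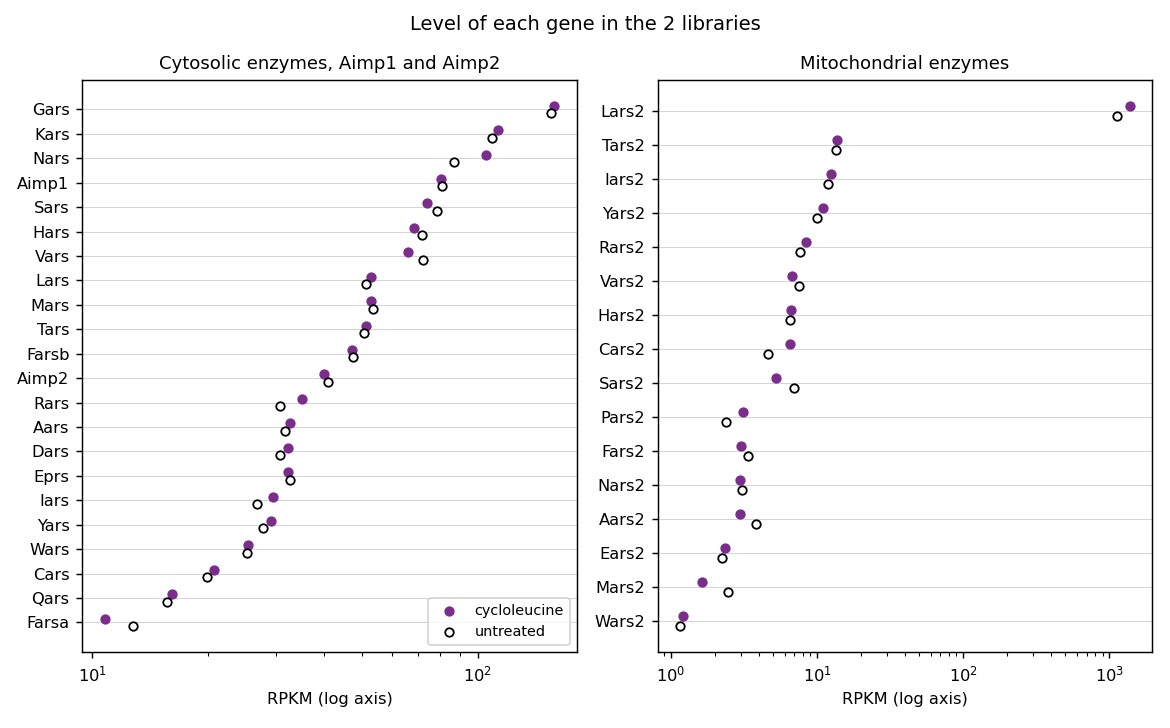
RPKM of each gene on a log axis in the cycloleucine library (filled) and the untreated library (open), with cytosolic enzymes, Aimp1 and Aimp2 on the left and mitochondrial enzymes on the right. The 2 points of most genes lie close together, and Lars2 stands far above every other member, at 1386 RPKM with cycloleucine and 1135 untreated.

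As a group the cytosolic synthetases were little different after 3 h of cycloleucine. Their median log2 fold change, computed from RPKM plus 0.1, was 0.04, with 13 genes above 0 and 7 below. Over all 9081 measured features, those with an annotated transcript, at least 50 exon reads over both libraries and an RPKM of at least 1 in either, the median was 0.0022. All 38 synthetase genes passed that minimum. A difference of 1.2-fold served as the size rule. Of the 20 cytosolic genes, 1 passed it upwards, where 11.6% of all measured features did, and 0 passed it downwards, where 10.1% did. Changes of 1.2-fold or more are less common among genes with as many reads as these. Of the 1977 features in the same range of reads, 4.15% were that much higher and 2.53% that much lower. Summed over the 20 genes, exon reads made up 0.396% of gene reads with cycloleucine and 0.390% untreated. In bulk RNA, a smaller share of cells with a transcript and less of it per cell cannot be told apart.

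Nars, the asparagine enzyme, was the cytosolic gene past 1.2-fold. It had 105 RPKM with cycloleucine and 87.1 untreated, from 8858 and 6216 exon reads, which is 0.27 in log2 (95% counting interval 0.23 to 0.32). The intervals given here cover counting error alone, and not the spread between cultures. Junction reads, which span 2 exons and so sample spliced RNA, also stood higher for Nars, at 0.24 (0.15 to 0.32), with 2924 with cycloleucine and 2111 untreated.

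Rars, the arginine enzyme, came next, at 35.1 RPKM with cycloleucine and 30.7 untreated, or 0.19 in log2 (0.12 to 0.26). Iars, for isoleucine, had 29.5 RPKM with cycloleucine and 26.8 untreated, at 0.14 (0.08 to 0.20). In both genes junction reads gave nearly the same value, 0.18 for Rars and 0.14 for Iars. Dars, for aspartate, had 32.2 RPKM with cycloleucine and 30.6 untreated, and Yars, for tyrosine, 29.1 with cycloleucine and 27.7 untreated. Both were at 0.07 in log2 from exon reads, and both lost that sign by junction reads, at -0.0017 for Dars and -0.013 for Yars.

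At the other end was Farsa, on the plus strand of chromosome 8 from 84856989 to 84869257 in GENCODE M21 (mm10), with 10.8 RPKM with cycloleucine and 12.8 untreated. Its log2 fold change was -0.25 (-0.35 to -0.15), just short of 1.2-fold, and junction reads placed it lower still, at -0.42 (-0.58 to -0.26). Farsb, whose product pairs with that of Farsa in the same enzyme, was at -0.0055 (-0.07 to 0.06). The level of Farsb over that of Farsa was thus 4.39 with cycloleucine and 3.71 untreated. Vars, the valine enzyme, had 65.9 RPKM with cycloleucine and 72.4 untreated, at -0.14 (-0.17 to -0.10). Sars, for serine, was at -0.08, with 74.0 RPKM with cycloleucine and 78.3 untreated, and Hars, for histidine, at -0.07, with 68.2 and 71.6 RPKM in the same order. Mars, which charges methionine, the amino acid from which S-adenosylmethionine is made, was at -0.03 (-0.08 to 0.03). It had 52.7 RPKM with cycloleucine and 53.7 untreated. The exons of Mars share 68 bases with those of Ddit3 on the opposite strand, and reads of the pair may not have been separated, since no source used here says whether counting used strand.

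The enzymes that serve both compartments were close to 0. Gars had 158 RPKM with cycloleucine and 155 untreated, at 0.03, and Kars was at 0.05. The scaffold genes were likewise close, with Aimp1 at 80.4 RPKM with cycloleucine and 80.6 untreated and Aimp2 at 39.9 and 40.9 in the same order. Uniquely placed reads moved Aimp2 to 0.09 and junction reads to -0.23, so its sign depended on the reads used. The exons of Aimp2 share 487 bases with those of Eif2ak1 on the opposite strand.

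Subsets of the cytosolic enzymes had medians close to each other. Class I enzymes (10 genes) had a median log2 fold change of 0.04 and class II enzymes (10) one of 0.03. Eprs, which charges both glutamate and proline, was counted in class I only, by its glutamate part. The multisynthetase complex, including the third scaffold gene Eef1e1, had 11 genes and a median of 0.04, with 6 above and 5 below 0. The 13 cytosolic genes listed as known ATF4 targets had a median of 0.03, and the other 7 one of 0.04. The 5 genes whose promoters are printed above were all above 0, from 0.02 in Tars to 0.14 in Iars, with a median of 0.05. Of the 8 cytosolic genes whose windows lacked the core, 3 were above and 5 below 0, with a median of -0.01. The 7 cytosolic genes without a window, Cars, Hars, Lars, Nars, Rars, Vars and Wars, are in neither group. They include the 2 highest cytosolic genes, Nars at 0.27 and Rars at 0.19, and also Vars at -0.14. This split depended on the reads used. From uniquely placed exon reads 5 of 5 genes with the core and 6 of 8 without it were above 0. From junction reads 3 of 5 and 2 of 8 were, with Tars at -0.03 and Yars at -0.013. With 5 and 8 genes from a single pair of libraries this is a description of their values. Within the amino acid response itself, Atf4 had 130 RPKM with cycloleucine and 127 untreated, at 0.03. Asns, the asparagine synthetase gene, was at 0.16 (0.10 to 0.23) and Trib3, a pseudokinase gene, at 0.21 (0.10 to 0.32), though at -0.09 (-0.49 to 0.31) from junction reads. Chac1 was at -0.12 and Sesn2 at -0.09 from exon reads, and Sesn2 was at -0.71 (-0.99 to -0.43) from junction reads. The 11 genes listed for this response had a median of 0.03, with 7 above and 4 below 0. Atf5 was at least 1.2-fold higher and Ddit3 at least 1.2-fold lower, 1 gene each way, beside 11.6% and 10.1% of all measured features. Atf5 was at 0.33 (0.18 to 0.50). Ddit3 had the largest change of the list, at -0.69 (-0.91 to -0.48), with 5.66 RPKM with cycloleucine and 9.19 untreated. By junction reads it was at -0.56 (-1.09 to -0.05). At 1.5-fold 0 of the 11 were higher and 1, Ddit3, was lower, beside 2.16% and 1.87% of all measured features.

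Mitochondrial synthetases had a median of 0.04, close to that of the cytosolic enzymes, but single genes lay further from 0. Of the 16, Cars2, Pars2 and Lars2, whose exon reads are described separately, were higher by at least 1.2-fold, and Mars2, Sars2 and Aars2 were lower by at least 1.2-fold. The middle 50% of them lay between -0.16 and 0.12, against -0.02 and 0.06 for the cytosolic enzymes. Their reads are fewer, with 400 to 6396 exon reads over both libraries when Lars2 is left out. Among the 6925 measured features in that range, 9.56% were that much higher and 8.52% that much lower, as were 2 and 3 of the 15 genes without Lars2. At 1.5-fold, with 0.1 added to RPKM, 0 of the 38 genes were past the rule in either direction, and Mars2, at -0.58, lay just short of it. Of all measured features 2.16% were higher and 1.87% lower by 1.5-fold or more, and in the read range of the mitochondrial enzymes 1.04% were higher and 0.708% lower.

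**Figure D2:**
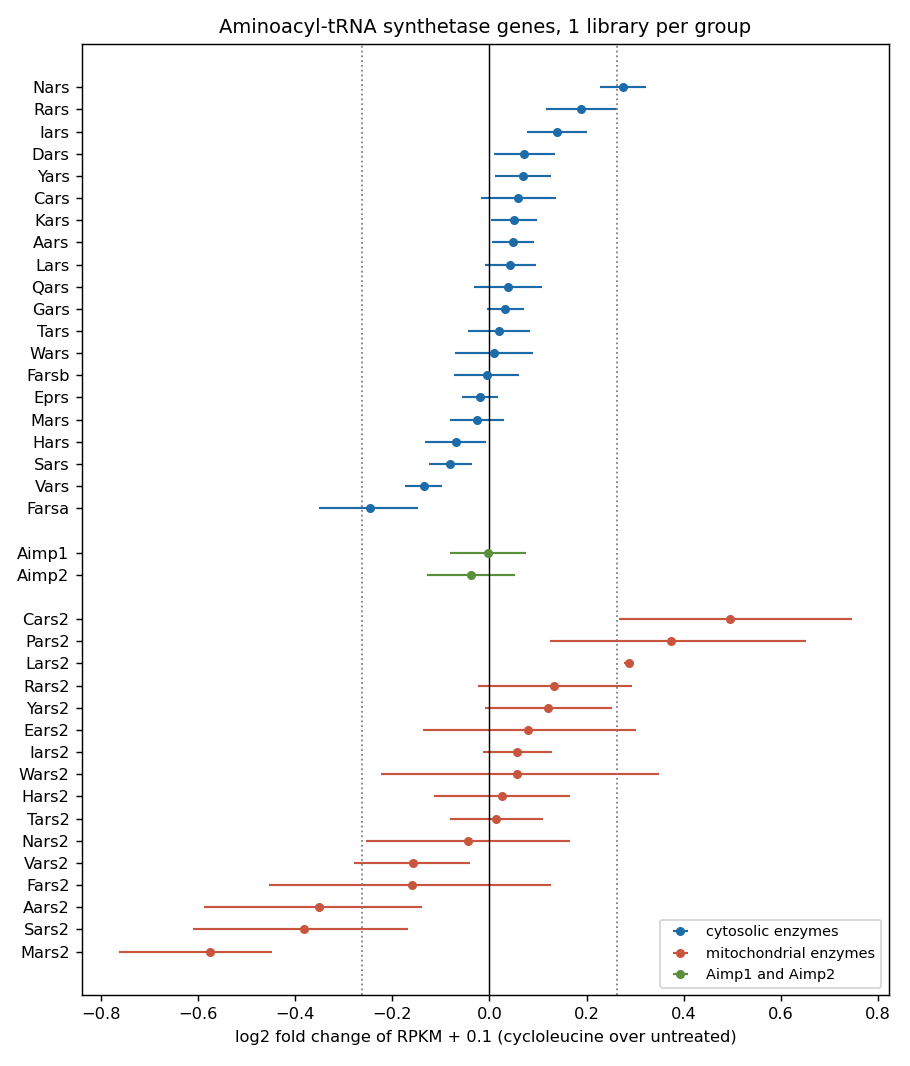
Log2 fold change of each gene, cycloleucine over untreated, from RPKM plus 0.1. Points are values, bars 95% counting intervals, and dotted lines mark 1.2-fold. Nars and 3 mitochondrial genes lie beyond the line on the right, and 3 mitochondrial genes, with Mars2 outermost at -0.58, beyond the line on the left.

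Cars2, the mitochondrial cysteine enzyme, was the highest. In GENCODE M21 (mm10) it occupies positions 11513977 to 11550783 of chromosome 8, minus strand. It had 6.54 RPKM with cycloleucine and 4.61 untreated, from 386 and 231 exon reads, which is 0.50 in log2 (0.27 to 0.75). Its junction reads (185 with cycloleucine and 109 untreated) and its intron reads (286 and 164) were higher too, at 0.53 and 0.56 in log2. Exons of Cars2 share 422 bases with those of Naxd on the opposite strand. Pars2, the mitochondrial proline enzyme, had 3.12 RPKM with cycloleucine and 2.38 untreated, from 308 and 200 exon reads, at 0.37 (0.13 to 0.65). It had 4 junction reads with cycloleucine and 3 untreated, too few to add to this. Rars2, for arginine, was at 0.13 (-0.02 to 0.29), with 8.43 RPKM with cycloleucine and 7.68 untreated.

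Mars2, the mitochondrial methionine enzyme, was the lowest of all 38 genes. It lies on the plus strand of chromosome 1, from 55237177 to 55248470 in GENCODE M21 (mm10). It had 1.63 RPKM with cycloleucine and 2.47 untreated, from 587 and 758 exon reads, which is -0.58 in log2 (-0.76 to -0.45). Its plain RPKM ratio, with nothing added, was 1.52-fold lower with cycloleucine and so past 1.5-fold. The annotated exon sequence, 11294 bases, fills the whole span of the gene and leaves no intron. Intron and junction reads were therefore 0 in either library by annotation, and exon reads alone describe it. Sars2, for serine, had 5.28 RPKM with cycloleucine and 6.91 untreated, at -0.38 (-0.61 to -0.17), and Aars2, for alanine, 2.96 with cycloleucine and 3.81 untreated, at -0.35 (-0.59 to -0.14). By junction reads Sars2 was at -0.59 (-0.95 to -0.25) and Aars2 at -0.37 (-0.78 to 0.03). Fars2, the phenylalanine enzyme of mitochondria, had 3.02 RPKM with cycloleucine and 3.38 untreated, at -0.16 (-0.45 to 0.13).

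The fold changes of partner genes for the same amino acid differed in several cases. Methionine had the widest gap, with Mars at -0.03 and Mars2 at -0.58. For cysteine, Cars was at 0.06 and Cars2 at 0.50, and for alanine Aars was at 0.05 and Aars2 at -0.35. Arginine, threonine, valine, tryptophan and tyrosine partners lay within 0.06 of each other. Over 14 amino acids, taking Farsa for phenylalanine, the partners had the same sign in 11 and the opposite sign in 3. The 11 include leucine, although the exon reads of Lars2 are described separately. Most of them are pairs in which the sign of at least 1 partner lies within counting error. Among the same-sign pairs, only those of serine and valine had both intervals away from 0. Among the opposite-sign pairs, only that of alanine did. The intervals of Tars (-0.04 to 0.08), Tars2 (-0.08 to 0.11), Wars (-0.07 to 0.09) and Wars2 (-0.22 to 0.35) all covered 0. The differences between partners were not tested, since each library was a single one.

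Lars2, the mitochondrial leucine enzyme, had reads unlike those of any other member. The gene lies on the plus strand of chromosome 9, from 123366927 to 123462666 in GENCODE M21 (mm10). It held 171833 exon reads with cycloleucine and 119503 untreated, 0.538% and 0.441% of all gene reads, the third highest exon count of the table in both libraries. Only 133 of its reads with cycloleucine and 107 untreated crossed an exon-exon junction. Junction reads over both libraries were thus 0.0824% of its exon reads. Leaving out Mars2 and Pars2, which have few or no junction reads, that share in the other 35 members was between 13.9% in Wars2 and 56.4% in Rars2, and its median over 5606 features with at least 1000 exon reads was 21.7%. The log2 fold change of Lars2 was 0.29 (0.28 to 0.30) from exon reads and 0.08 (-0.30 to 0.46) from junction reads. Of its exon reads 59.3% with cycloleucine and 59.1% untreated were uniquely placed. Its annotated transcript of 3894 bases carries a stretch of 72 bases that is 98.6% identical to Gm15564, annotated as an antisense RNA gene, with 105 exon reads with cycloleucine and 8 untreated. Whether this stretch has a part in the Lars2 count was not tested. The exon value of Lars2 is therefore not read here as a level of the enzyme's transcript.

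**Figure D3:**
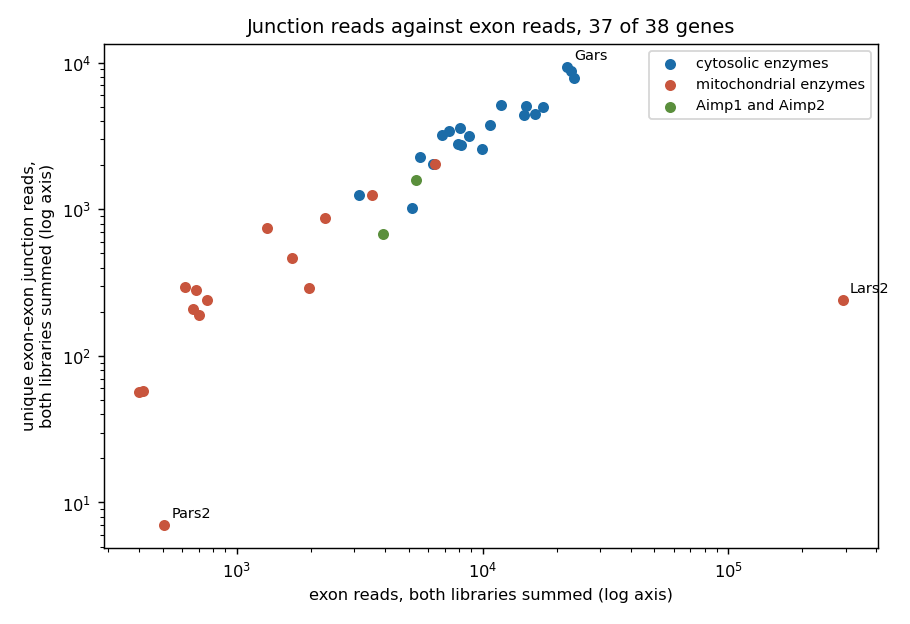
Uniquely placed exon-exon junction reads against exon reads, both summed over the 2 libraries, on log axes, for the 37 genes with any junction read. Lars2 lies far to the right of all others, with 0.0824% junction reads, and Pars2 lies lowest, with 4 junction reads with cycloleucine and 3 untreated.

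By junction reads, 4 of 36 members with at least 50 such reads passed 1.2-fold upwards, where 17.5% of 7373 features did, and 4 passed it downwards, where 18.2% did. Cars2, Ears2, Nars2 and Wars2 were the higher ones, and Farsa, Fars2, Aars2 and Sars2 the lower. Wars2 had 45 junction reads with cycloleucine and 13 untreated, a log2 fold change of 1.52 (0.64 to 2.57), while its exon reads, 230 and 187, gave 0.06 (-0.22 to 0.35). Its junction share of exon reads was 19.6% with cycloleucine and 6.95% untreated.

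Intron reads were compared with exon reads of the same gene, a ratio in which a factor for a whole library cancels. In the cytosolic enzymes intron reads were lower relative to exon reads with cycloleucine in 15 of 20 genes. The median log2 change of their ratio was -0.19, against 0.02 over the 6803 genes that had 100 or more intron and 200 or more exon reads. Among 1778 such genes with as many exon reads as the cytosolic enzymes, 924 lay below and 854 above 0, with a median of -0.01. In the 12 mitochondrial enzymes with enough reads the median was 0.06, with 4 below and 8 above 0. These include Lars2, whose exon reads are described separately. Without it, 11 genes had a median of 0.06, with 3 below and 8 above 0.

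Among members with enough reads, Aars showed the lowest ratio change, at -0.69 (-0.96 to -0.43). It had 207 intron reads with cycloleucine and 275 untreated, while its exon reads were 9676 and 7947 in the same order. Of the 9282 exon bases of Aars, 1326 are shared with Exosc6 on the same strand, and its part in either count was not tested. The middle 95% of the 6803 genes lay between -0.66 and 0.72, so Aars was just outside it. Cars, with 443 intron reads with cycloleucine and 518 untreated, and Nars, with 296 and 298 in the same order, were both at -0.52. Mars was at -0.40 (-0.63 to -0.17) and Iars at -0.29 (-0.46 to -0.12). Nars, the cytosolic gene with the highest exon fold change, had a log2 fold change of -0.25 (-0.48 to -0.0089) in intron reads scaled by library totals.

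Of the 13 known ATF4 targets, 11 had a ratio change below 0, with a median of -0.25, and 4 of the other 7 cytosolic enzymes did, with a median of -0.04. The response genes with enough reads had 7 of 8 below 0 and a median of -0.29. Among all measured features with enough reads, 3120 lay below and 3463 above 0, with a median of 0.02. A link of these ratios to ATF4 was not tested. Ratios above 0 were found in Farsa (0.37, -0.19 to 0.94), Wars (0.29, 0.04 to 0.54) and Rars (0.28, -0.08 to 0.63). Aimp1 was the highest member with enough reads, at 0.40 (-0.05 to 0.85), with 104 intron reads with cycloleucine and 67 untreated. Of the members with fewer intron reads, Aars2, at 0.99 (0.32 to 1.66), and Pars2, at -1.58 (-2.80 to -0.36), lay further out. Aars2 had 55 intron reads with cycloleucine and 30 untreated, and Pars2 8 and 16 in the same order. Lars carried the most intron reads of all members, 5482 with cycloleucine and 4383 untreated, and its ratio change was 0.04 (-0.03 to 0.12).

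**Figure D4:**
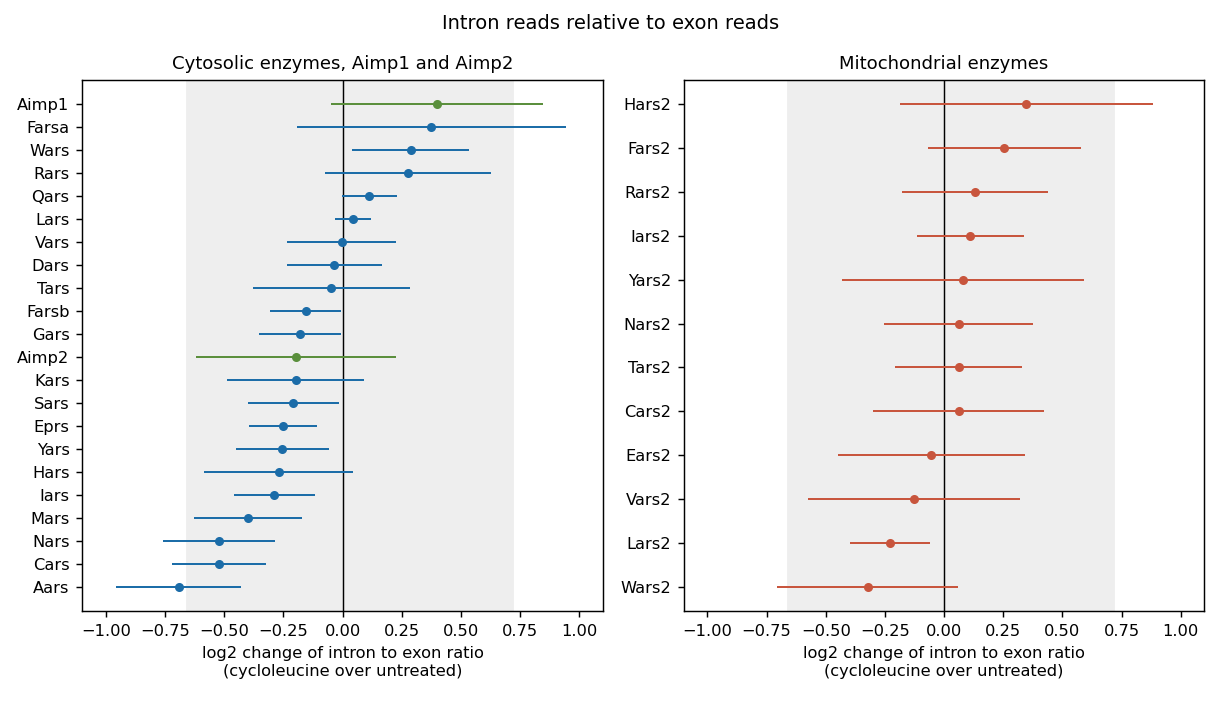
Log2 change of the intron to exon read ratio, cycloleucine over untreated, for the members with enough reads, with 95% counting intervals. Grey marks the middle 95% of 6803 genes. Most cytosolic enzymes lie left of 0, down to Aars at -0.69, while mitochondrial enzymes, Lars2 among them, lie on both sides.

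Other genes that act on charged transfer RNA were lower more often than higher. Of 23 symbols, 22 were in the table and measured, with 7 above and 15 below 0 and a median of -0.12. By the 1.2-fold rule 0 were higher, where 11.6% of all measured features were, and 5 were lower, where 10.1% were. Those were Ptrh2, a peptidyl-tRNA hydrolase gene, Qrsl1 and Gatc, for subunits of the mitochondrial amidotransferase that makes glutaminyl-tRNA, Pstk, a kinase for seryl-tRNA of selenocysteine, and Prorsd1. Qrsl1 had 2.90 RPKM with cycloleucine and 3.74 untreated, at -0.35 (-0.59 to -0.14), and Gatc 7.43 with cycloleucine and 9.37 untreated, at -0.33 (-0.53 to -0.14). Gatb, for the remaining subunit of that enzyme, was at 0.23 (-0.0026 to 0.48), and Ears2, which supplies its substrate, at 0.08 (-0.14 to 0.30). Ptrh2 had 6.05 RPKM with cycloleucine and 7.83 untreated, at -0.37 (-0.53 to -0.21). Pstk and Prorsd1 had at most 105 exon reads in a library. The scaffold gene Eef1e1 was at -0.16 (-0.28 to -0.04).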

How the data were processed

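For each gene the authors deposited counts of reads over exons, introns and exon-exon junctions, both total and uniquely placed, per the file headers. It also held RPKM, which the authors scaled by exon length and by gene reads. Recomputing RPKM from exon reads returned the deposited value in 29646 of 29646 features with an annotated transcript, in both libraries, within a share of 0.0001. The submitters' processing notes name the mm10 build. No aligner, counting tool, annotation release or strand setting is named in the sources used here. The exons of 15 of the 38 members overlap another gene's in GENCODE M21. There were 0 columns of other libraries.

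Log2 fold changes were taken from RPKM plus 0.1, a scale on which changes of low genes come out too small. No test between conditions was made. Intervals are 95% exact (Clopper-Pearson) ones. They were computed for the fraction of a gene's exon reads that fell in the cycloleucine library and then corrected for library totals. Those of intron to exon ratios, with 0.5 added to each count, are normal approximations. They cover counting error only, and without molecular identifiers PCR copies count as separate reads. Members and gene lists were chosen with earlier results of these data known, and so was the 1.2-fold rule. Values are given for the 5 highest and 5 lowest cytosolic and the 4 highest and 4 lowest mitochondrial genes, the scaffold genes, Gars, Kars, Farsb, Mars, Lars2 and the extremes of the intron to exon ratio. Wars2, Lars, Wars and Asns, among others, were named after their values were seen. The promoter search was also added then. The result of 1 gene listed beside the members is not reported here, and the counts of that list leave it out. Computation used Python 3.11.15, pandas 2.3.3, SciPy 1.17.1 and BLAST 2.17.0, and the fold change step was tested on simulated data.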

Additional observations from a re-analysis of the deposited data

How the results depend on the processing

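No paired analysis was possible because there was 1 library for each treatment. At a 1.5-fold threshold, with 0.1 added to RPKM, 0 members were higher and 0 lower, and 196 and 170 of all measured features. Requiring an RPKM of at least 5 left 1 member at least 1.2-fold lower, in place of 3, and 444 features higher and 317 lower, in place of 1055 and 921. That setting measures fewer genes. With no filter 4527 features were higher and 3792 lower, since more enter, and with a pseudocount of 1 577 were lower. The cytosolic median was 0.064 from uniquely placed exon reads and -0.0072 from junction reads, so its sign depended on the reads used. The value from uniquely placed reads includes the upward shift that comes from scaling by uniquely placed gene reads. Junction reads put 8 of 36 members below 0 that exon reads put above it, and 2 above that were below, Eprs and Nars2. The 8 were Dars (-0.0017), Yars (-0.013), Iars2 (-0.15, -0.27 to -0.02), Cars, Qars, Tars, Hars2 and Tars2. The cause was not tested. Without Lars2, a setting chosen after seeing the data, the mitochondrial median was 0.02. For single members, 197 of 219 values lay within the counting interval of the value reported. This count includes 31 values from the RPKM minimum of 5 and 38 from no filter. Those settings change only which genes are kept, so these values could not differ. From junction reads, which are fewer, 18 of 36 lay within the interval. Junction reads also gave 18 of the 22 values that lay outside it. The signs of 32 of 38 members were the same from uniquely placed reads. Depth limits the mitochondrial genes most, since several had under 400 exon reads in either library.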
